A study of Mus musculus with 4 samples.

Results

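The genes Lcn2, Il33, Serpina3n, Gpx3, Chil1, Gpnmb, Icam1, Vcam1 and Socs3, which belong to the acute-phase and tissue stress response, were followed in the lens epithelium of mouse eyes with and without UVB irradiation. These are 9 of the 19938 genes that the annotation of the arrays gives a probe set of their own. They were chosen by what they encode and by their measured UVB minus control values, since several were known to be higher mostly in experiment 2. Those values are therefore given as a description, without a test.

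UVB-irradiated epithelia came from right eyes exposed to 30 mJ/cm2, and control epithelia from left eyes of the same animals, which were covered with aluminum foil. The animals were 8-week-old C57BL/6 male mice, and the lenses were taken 1 day after irradiation. Each of 2 independent experiments gave 1 array per condition, 4 arrays in all, and the methods give 3 mice per animal experiment without saying how many were pooled on an array. Each value is a log2 signal of the deposited table, so that a difference of 1 is a doubling.

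Acute-phase proteins are secreted in response to injury or infection, classically by the liver under interleukin-6, which acts through STAT3, and interleukin-1, which acts through NF-κB. Many other epithelia make some of them locally when they are stressed. In the eye, lipocalin 2 and Serpina3n are best known as genes of reactive glia in the injured retina, IL-33 as a nuclear cytokine that dying or stressed cells release, and the adhesion molecules ICAM-1 and VCAM-1 as the means by which leukocytes attach to activated vessel walls and epithelia.

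The deposited table limits how these arrays can be read. In 100% of the 28944 probe sets, control plus UVB of experiment 1 equaled control plus UVB of experiment 2 within 0.02, so that the mean of each experiment had been made equal. A gene with a larger UVB minus control value in experiment 2 must therefore show both a higher UVB signal and a lower control signal there, and the values cannot tell which of the arrays differed. Likewise, UVB arrays lie above control arrays without overlap wherever the change is positive in both experiments. A lack of overlap therefore adds nothing to these changes. With 1 array per condition in each experiment, a difference between the experiments cannot be tested. In whole epithelia, more cells of a type and more RNA per cell cannot be told apart either. The array medians were 7.19 to 7.22. All 9 lens epithelium markers, among them Foxe3, Pax6 and Cdh1, lay above the median on every array.

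Lcn2, Serpina3n, Gpnmb and Il33 had a far larger UVB minus control value in experiment 2 than in experiment 1. Among the 10787 genes with a mean signal above the median, they had the largest excess of experiment 2 over experiment 1, in the order Lcn2, Serpina3n, Gpnmb and Il33. All 4 were higher after UVB by 2.22-fold to 2.97-fold in experiment 2 and by 1.01-fold to 1.39-fold in experiment 1, where the sign for Serpina3n turned after median centring of the arrays.

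Lcn2 encodes lipocalin 2, a secreted protein that binds iron-loaded bacterial siderophores. Its log2 signal was 8.17 in control and 8.48 in UVB in experiment 1, and 7.54 in control and 9.11 in UVB in experiment 2. Both UVB arrays were above both control arrays, and the lowest and the highest signal both came from experiment 2. Because the experiment means are equal, both facts follow from the 2 changes, here and in the genes below. UVB minus control was 0.31 in experiment 1 and 1.57 in experiment 2, or 1.24-fold and 2.97-fold, with a mean of 0.94 ± 0.891 (SD, n = 2 experiments). Among all genes its change ranked 3rd in experiment 2 and 632nd in experiment 1. RefSeq places Lcn2 at chr2:32384637-32387739 in build GRCm38.p6.

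Serpina3n encodes a secreted serine protease inhibitor, a mouse counterpart of α1-antichymotrypsin. Its signal was 9.52 in control and 9.54 in UVB in experiment 1, and 8.96 in control and 10.11 in UVB in experiment 2. The arrays of experiment 1 thus hardly differed, and those of experiment 2 lay below and above them. UVB minus control was 0.02 in experiment 1 (−0.01 after median centring of the arrays) and 1.15 in experiment 2 (mean 0.585 ± 0.799, SD, n = 2). Its change stood at the 60.4th percentile of all probe sets in experiment 1 and at the 99.9th in experiment 2. The gene lies at chr12:104406646-104414334.

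Gpnmb encodes a transmembrane glycoprotein of melanosomes and of phagocyte lysosomes. Its signal was 8.30 in control and 8.78 in UVB in experiment 1, and 7.76 in control and 9.32 in UVB in experiment 2. The groups did not overlap, and of the 9 genes it had the largest mean change, 1.02 ± 0.764 (SD, n = 2), or 2.03-fold. UVB minus control was 0.48 in experiment 1 and 1.56 in experiment 2, where it ranked 4th of all genes. The gene lies at chr6:49036518-49058182.

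Il33 encodes interleukin 33, which is kept in the nucleus and acts on neighboring cells through the receptor ST2 once released. Its signal was 8.70 in control and 8.96 in UVB in experiment 1, and 8.24 in control and 9.42 in UVB in experiment 2. Again the groups did not overlap and experiment 2 held both extremes, as its 2 changes require. UVB minus control was 0.26 in experiment 1 and 1.18 in experiment 2, or 1.20-fold and 2.27-fold (mean 0.72 ± 0.651, SD, n = 2). The gene lies at chr19:29925113-29960718.

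**Figure D1:**
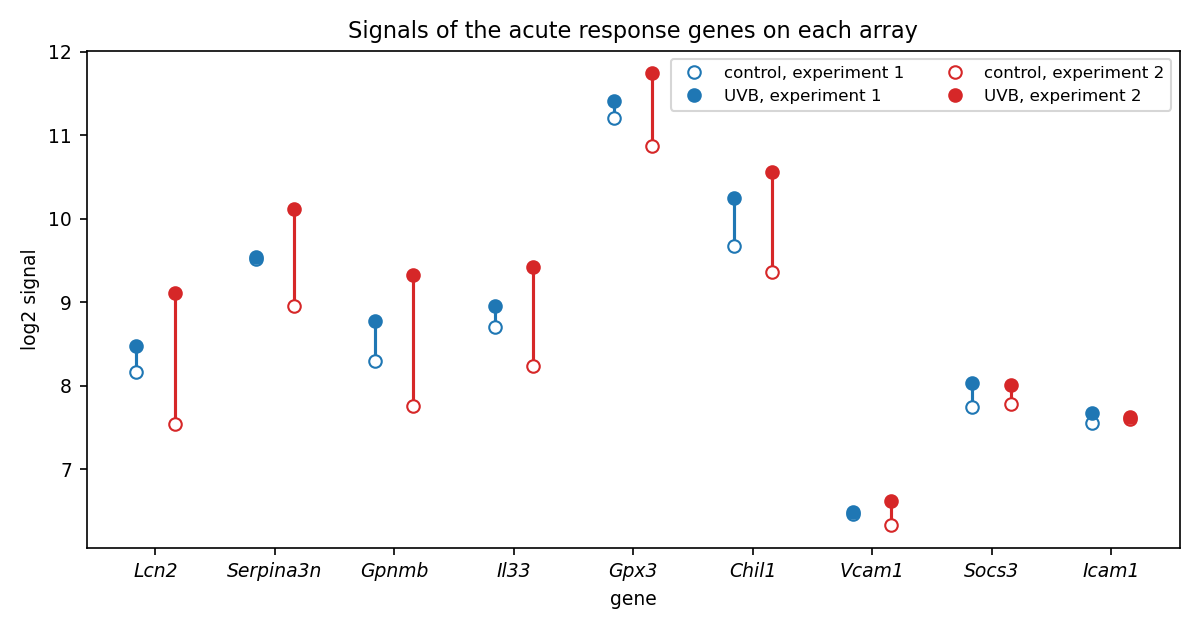
Log2 signal (vertical axis) of each gene (horizontal axis, in order of the excess of experiment 2) on the 4 arrays, with control as open and UVB as filled circles and a line joining the 2 arrays of an experiment. The lines of experiment 2 are the longer ones from Lcn2 to Vcam1, and in Serpina3n and Vcam1 the 2 circles of experiment 1 cover each other.

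Chil1 and Gpx3 were higher in experiment 2 as well, and Chil1 was also among the more changed genes of experiment 1. Chil1 encodes a secreted chitinase-like protein without enzyme activity that inflamed tissues release. Its signal was 9.67 in control and 10.25 in UVB in experiment 1, and 9.36 in control and 10.56 in UVB in experiment 2. Of the 9 genes it had the largest change in experiment 1, 0.58 or 1.49-fold, against 1.20 or 2.30-fold in experiment 2 (mean 0.89 ± 0.438, SD, n = 2). Gpx3, the secreted glutathione peroxidase that reduces peroxides outside cells, had signals of 11.20 in control and 11.41 in UVB in experiment 1, and of 10.87 and 11.74 in experiment 2. Its UVB minus control values were 0.21 and 0.87 (mean 0.54 ± 0.467, SD, n = 2), the smallest change in experiment 2 among these 6 genes.

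Icam1, Vcam1 and Socs3 did not share the large change of experiment 2. Icam1, the endothelial and epithelial ligand of leukocyte β2 integrins, had signals of 7.55 and 7.67 in control and UVB of experiment 1, and of 7.60 and 7.62 in experiment 2. UVB minus control was 0.12 and 0.02, so that here experiment 1 gave the larger value. Vcam1, a ligand of α4 integrins, had signals of 6.47 and 6.49 in experiment 1 and of 6.33 and 6.62 in experiment 2, below the array median on all 4 arrays.

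The change of Vcam1 was 0.02 in experiment 1 (−0.01 after median centring of the arrays) and 0.29 in experiment 2. Socs3, an inhibitor of cytokine receptor signaling that STAT3 induces, had signals of 7.75 and 8.03 in control and UVB of experiment 1, and of 7.78 and 8.01 in experiment 2. Its changes of 0.28 and 0.23 were nearly alike (mean 0.255 ± 0.035, SD, n = 2). A second Socs3 probe set had smaller changes, 0.09 and 0.07, so the size of the Socs3 change depended on the probe set.

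Counted over the 9 genes, 0 exceeded 1.8-fold in experiment 1, where 0.131% of all probe sets did, and 6 did in experiment 2, where 0.321% did. In the mean of both experiments, Lcn2, Chil1 and Gpnmb exceeded 1.8-fold, against 0.176% of all probe sets. The UVB arrays were above the control arrays without overlap in all 9, which was the case in 24.0% of all probe sets, although in Serpina3n and Vcam1 the sign in experiment 1 turned after median centring of the arrays. The change of experiment 2 was more than 1.5-fold above that of experiment 1 in 6 of the 9 and in 0.435% of all probe sets, and as far below it in 0 of the 9 and in 0.390%. The median change was 0.26 in experiment 1 and 1.15 in experiment 2, against −0.01 and −0.02 over all probe sets. Since these values chose the genes, nothing is read from the counts.

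**Figure D2:**
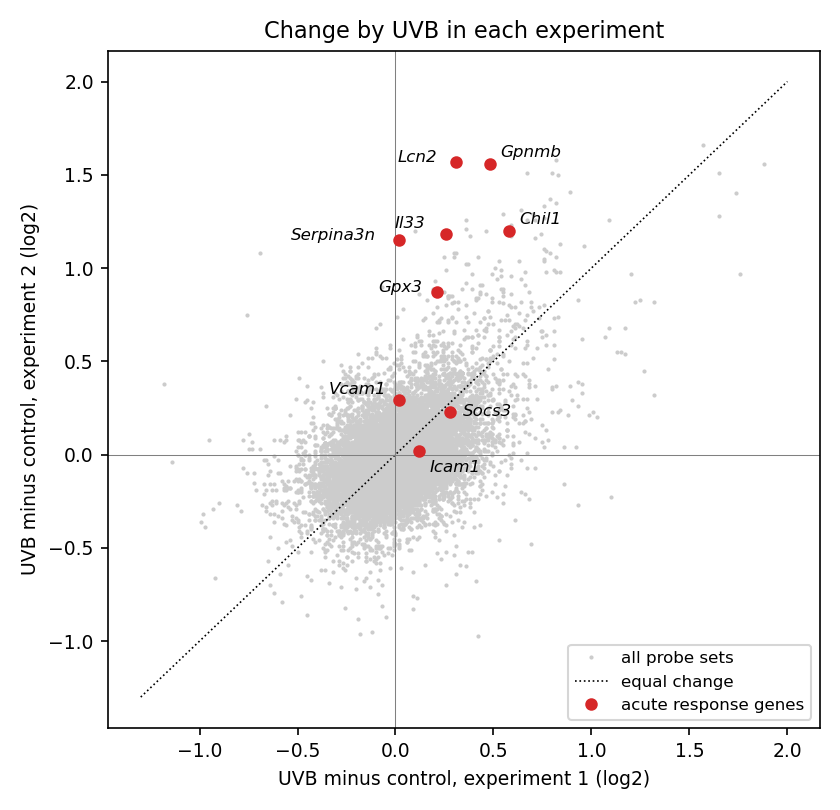
UVB minus control (log2) in experiment 1 (horizontal axis) and experiment 2 (vertical axis) for all 28944 probe sets in grey and the 9 acute response genes in red, with equal changes on the dotted line. Lcn2, Gpnmb, Serpina3n, Il33, Chil1 and Gpx3 lie well above the line, and Icam1, Vcam1 and Socs3 lie near it.

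The sequences before the start sites were set beside these values, because genes induced by the same cytokines often share binding sites there. RefSeq promoters were matched for 8 of the 9 genes, in 9 windows of 250 bases before a start site, 2 of them for Il33. Both strands were searched for 4 motifs. TTCNNNGAA, the core of STAT sites, was found in 2 windows, those of Icam1 and Socs3, and in 7.02% of all 32851 RefSeq promoter windows of that length. GGGRNNYYCC, a strict form of the NF-κB consensus (R is A or G, Y is C or T, N is any base), was found in the window of Chil1. It was 1 site that reads as a match on both strands, and 7.25% of all windows held a match. Sites that depart from these letters, such as tggaaattcc in the window of Icam1, were not counted. TTGCNNAA, a form of the C/EBP site, was found in the windows of Lcn2 and of the downstream start site of Il33, and in 9.56% of all windows. TGANTCA, the core of AP-1 sites, was found in 0 of the 9 windows and in 6.75% of all. Of the 6 genes with the large change in experiment 2, Serpina3n, Gpnmb and Gpx3 held none of the 4 motifs in these windows. A match is a stretch of letters and was not tested for binding.

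The windows that end just before the first base of their gene are shown for 5 genes, 3 of them with a match and 2 without. They are given 5′ to 3′ on the strand of the gene, in build GRCm38.p6, with the matches in capitals (C/EBP in Lcn2, NF-κB in Chil1, STAT in Icam1).
Lcn2 (chr2:32387740-32387989, minus strand): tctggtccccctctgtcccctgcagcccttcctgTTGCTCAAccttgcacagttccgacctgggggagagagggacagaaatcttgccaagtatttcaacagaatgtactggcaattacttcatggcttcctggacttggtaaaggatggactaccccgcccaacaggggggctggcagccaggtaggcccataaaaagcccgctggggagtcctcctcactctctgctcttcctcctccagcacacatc
Chil1 (chr1:134181906-134182155, plus strand): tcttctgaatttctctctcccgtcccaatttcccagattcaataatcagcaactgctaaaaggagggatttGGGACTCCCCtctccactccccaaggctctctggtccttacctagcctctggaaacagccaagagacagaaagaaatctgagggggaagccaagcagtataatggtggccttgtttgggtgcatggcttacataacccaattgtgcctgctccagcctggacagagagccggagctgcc
Icam1 (chr9:21015690-21015939, plus strand): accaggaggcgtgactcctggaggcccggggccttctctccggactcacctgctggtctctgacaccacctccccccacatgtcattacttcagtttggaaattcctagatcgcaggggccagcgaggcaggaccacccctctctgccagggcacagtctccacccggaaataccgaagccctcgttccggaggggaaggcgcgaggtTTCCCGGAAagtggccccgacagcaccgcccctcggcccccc
Il33 (chr19:29924863-29925112, plus strand): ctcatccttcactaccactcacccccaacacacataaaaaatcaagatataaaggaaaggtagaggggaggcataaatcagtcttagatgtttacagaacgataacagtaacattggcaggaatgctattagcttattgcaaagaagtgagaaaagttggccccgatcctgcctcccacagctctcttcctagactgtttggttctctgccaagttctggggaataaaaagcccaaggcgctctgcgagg
Gpnmb (chr6:49036268-49036517, plus strand): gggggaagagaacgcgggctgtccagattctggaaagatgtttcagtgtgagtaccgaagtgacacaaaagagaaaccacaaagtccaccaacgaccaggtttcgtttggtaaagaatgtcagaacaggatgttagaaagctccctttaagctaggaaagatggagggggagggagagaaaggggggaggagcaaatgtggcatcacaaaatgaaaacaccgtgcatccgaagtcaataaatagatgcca

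The match in Lcn2 begins 216 bases before the start site, that in Chil1 179 bases and that in Icam1 42 bases before it. The downstream window of Il33, not shown, holds its match 85 bases before that start site.

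The genes most like Lcn2 and Il33 were sought by the distance between their pairs of changes, among genes with a mean signal above the median. Because the experiment means are equal, the 4 arrays give each gene only these 2 changes, so that likeness rests on 2 values. Nearest to Lcn2 was Gpnmb, at a distance of 0.17 on the log2 scale. Rhoj, a small GTPase of blood vessels, followed at 0.36 with changes of 0.36 and 1.21, and Neurod1, a transcription factor of photoreceptors and retinal neurons, at 0.37 with changes of 0.67 and 1.51. Nearest to Il33 were Rhoj at 0.10, Gpm6a, a neuronal membrane glycoprotein, at 0.11 (0.31 and 1.08), and Optc, which encodes opticin, a protein of the vitreous made by the ciliary body, at 0.12 (0.25 and 1.06).

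The 10 genes with the largest excess of experiment 2, among those at least 1.8-fold higher in it, included the 4 described first. The others were Rhoj, Neurod1, Optc, Reln, Gm5662 and Olfr994. Reln, which encodes the extracellular matrix protein reelin, had changes of 0.38 and 1.17. Gm5662, with signals of 3.77 to 4.85, and Olfr994, with signals of 3.70 to 4.60, lay far below the array medians.

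Other genes of the same pathways were taken from 8 lists, 162 genes in all, of which 139 had a probe set of their own. Over 1.8-fold higher in either experiment were 0 of the 139, over 1.8-fold lower were 0 in experiment 1 and 1 in experiment 2 (Emp1), and the median change was 0 in both. The change of experiment 2 was more than 1.5-fold above that of experiment 1 in 1 of the 139 and as far below it in 3. A limma fit of UVB against control, without pairing of the experiments, called 12 of the 139 higher at an adjusted p of 0.05, or 8.63%, against 6.62% of all probe sets. It called 13 lower, or 9.35%, against 11.0% of all. At 1.8-fold and an unadjusted p of 0.01, 0 of the 139 were called higher or lower, against 0.111% of all probe sets called higher, and 24 higher and 26 lower had an unadjusted p under 0.05. When the experiment entered as a block, the control and UVB arrays of an experiment were paired. Then 0 of the 139 were called at an adjusted p of 0.05, with 11 higher and 9 lower at an unadjusted p under 0.05. Because the experiment means were equal, the unpaired fit takes too little account of the spread between arrays and favors genes whose changes were alike in both experiments, and none of its calls of listed genes was kept with the block (adjusted p of at least 0.357) or with any 1 of the 4 arrays left out.

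In the NF-κB list, the unpaired fit called 4 of 17 genes higher and 0 lower (3 lower at an unadjusted p under 0.05). Here and below, rose and fell mean such calls at an adjusted p of 0.05, made in 6.62% and 11.0% of all probe sets. With the experiment as a block, none of them held. Tnfaip3, which encodes the NF-κB inhibitor A20, went from signals of 7.69 and 7.70 in control to 8.12 on both UVB arrays. The UVB arrays were thus alike and above both controls, as like changes and equal experiment means require. The changes were 0.43 and 0.42 (log2 fold change 0.425, standard error 0.009, adjusted p = 0.0210). Nfkbiz, which encodes IκBζ, a nuclear co-activator of Lcn2 and other secondary NF-κB targets, rose by 0.20 and 0.23 (adjusted p = 0.0215). Nfkbia, the inhibitor IκBα, rose by 0.19 and 0.12 (adjusted p = 0.0444), and Birc3, an inhibitor of apoptosis, by 0.11 and 0.17 (adjusted p = 0.0432). Bcl3, a nuclear IκB protein, had changes of 0.67 and 0.25 (adjusted p = 0.110), and Nfkbie, the inhibitor IκBε, of −0.31 and −0.17 (adjusted p = 0.0598).

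Over the whole NF-κB list, called or not, experiment 2 minus experiment 1 ran from −0.42 in Bcl3 to 0.40 in Tnfrsf1b, a TNF receptor, beside 1.26 in Lcn2 and 0.92 in Il33, on the log2 scale. None of these differences was tested, since each experiment had 1 array per condition.

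Of the 20 acute-phase proteins measured, 3 rose and 2 fell, and 1 had an excess of experiment 2 over 1.5-fold. Steap4, a metalloreductase induced by inflammation, went from signals of 6.05 and 5.94 in control to 6.51 and 6.62 in UVB (changes 0.46 and 0.68, adjusted p = 0.0348). Saa3, an acute-phase apolipoprotein made outside the liver, had signals of 4.68 to 5.06, below the array medians (changes 0.38 and 0.34, adjusted p = 0.0210). Ptx3, a long pentraxin, was the other gene called higher (0.31 and 0.19). The genes called lower were Orm2, an orosomucoid, at −0.39 and −0.35 with signals of 4.81 to 5.20, and Itih4, a protein of the hyaluronan-binding inter-α-inhibitor family, at −0.07 and −0.08. A2m, the α2-macroglobulin gene, had −0.10 in experiment 1 and 0.68 in experiment 2, and was not called (adjusted p = 0.434).

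Genes upstream of the acute phase had small changes. Of 27 genes of the IL-6 family and STAT3 pathway, 1 rose and 2 fell. Il6 had signals of 3.08 to 3.19 and changes of −0.01 and 0.11. Stat3 had changes of 0.01 and 0.02, and Il6st, the shared receptor subunit gp130, of 0 and 0.01. Osm, the cytokine oncostatin M, rose by 0.28 and 0.17 (adjusted p = 0.0472), while Pim1, a kinase that STAT3 induces, fell by 0.24 and 0.16 (adjusted p = 0.0375) and Clcf1, a cytokine of the family, by 0.14 and 0.10 (adjusted p = 0.0351). Socs2, a relative of Socs3, had changes of −0.03 and −0.50 (adjusted p = 0.270).

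Of 15 IL-1 family ligands, receptors and adaptors, 0 rose and 3 fell, and 0 had an unadjusted p under 0.05 in the upward direction. Il1b, the cytokine interleukin 1β, fell by 0.15 in each experiment (adjusted p = 0.0212), and the kinases Irak1 and Irak3 fell by 0.085 and 0.10 in the mean. Il1rap, the co-receptor through which IL-33 signals, had changes of −0.10 and 0.06 (adjusted p = 0.793). Il1rl1, which encodes ST2, had no probe set with its symbol in the annotation used here. Il1r2, a decoy receptor, had changes of 0.30 and 0.02, Il1a, the cytokine interleukin 1α, of −0.07 and −0.24, and Il18rap, a subunit of the IL-18 receptor, of −0.22 and −0.12, none of them called.

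Partners of the adhesion molecules had small changes of both signs. Of 14 genes on that list, Itga4, the α4 integrin that binds VCAM-1, rose (0.17 and 0.19, adjusted p = 0.0212). Itgam, the αM integrin that binds ICAM-1, and Madcam1, an adhesion molecule of gut vessels, fell (−0.21 and −0.18, and −0.16 and −0.24). Itgb2, the β2 integrin, had changes of 0.21 and 0.06 (adjusted p = 0.151), and Pecam1, an adhesion molecule of endothelium, of −0.32 and −0.16 (adjusted p = 0.0696).

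Among 17 phagocyte and lysosome genes, which Gpnmb accompanies in macrophages, Cd68 rose and Cd9 fell. Cd68, a lysosomal glycoprotein of macrophages, went from signals of 7.23 and 7.09 in control to 7.68 and 7.82 in UVB, with changes of 0.45 and 0.73 (adjusted p = 0.0436). The groups did not overlap, which follows from its 2 positive changes, and, as in Gpnmb, the larger change was in experiment 2. Cd9, a tetraspanin, fell by 0.15 in each experiment. Tyrobp, an adaptor of myeloid receptors, had the reverse order with 0.53 and 0.11 (adjusted p = 0.186), and Ctsk, a cathepsin, had changes of 0.28 and 0.12 (adjusted p = 0.0937).

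Of 10 reactive glia genes, Cxcl10, a chemokine induced by interferon, rose (0.44 and 0.33, adjusted p = 0.0263) and Hspb1, a small heat shock protein, fell (−0.12 and −0.16, adjusted p = 0.0302). The signals of Cxcl10, 5.79 to 6.23, lay below the array medians. Emp1, an epithelial membrane protein, had changes of −0.12 and −0.95 (adjusted p = 0.235), opposite in sign to Lcn2 and Serpina3n in experiment 2.

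Of 19 relatives and binding partners of the 9 genes, 1 rose and 2 fell. The change of experiment 2 was more than 1.5-fold above that of experiment 1 in 0 and as far below it in 2, Gpx6, a relative of Gpx3 (0.51 and −0.16), and Chil4, a relative of Chil1 (0.22 and −0.46). Ptgds, a lipocalin as Lcn2 is, rose by 0.07 and 0.09, and the chitinase relatives Chit1 and Chid1 fell by 0.09 and 0.18 in the mean. Lrp2 and Slc22a17, which encode receptors of lipocalin 2, had changes of 0.18 and 0.40 (adjusted p = 0.0851) and of −0.10 and −0.06 (adjusted p = 0.0598). Serpina3b, a gene of the Serpina3 cluster, had changes of −0.39 and −0.15 (adjusted p = 0.106), and Chia1, an acidic chitinase, of −0.13 and −0.31 (adjusted p = 0.0948). Serpina3n belongs to a cluster of closely related genes, 8 of which had no probe set of their own, so signal shared with them cannot be told apart from its own.

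**Figure D3:**
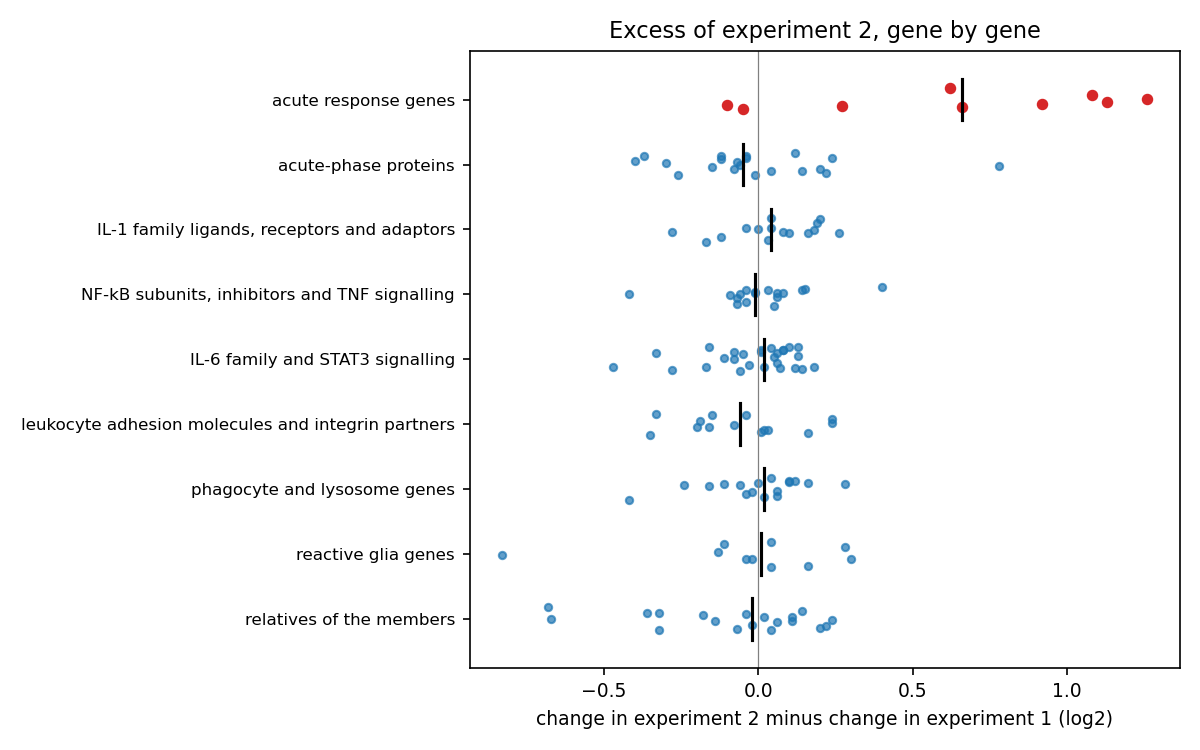
Change in experiment 2 minus change in experiment 1 (log2, horizontal axis) for each gene of the acute response (red) and of the 8 pathway lists (blue), with a bar at each median and points spread vertically for sight. The median of the acute response genes is 0.66, and of the 139 listed genes only A2m, at 0.78, has an excess over 1.5-fold, while 3 lie as far to the other side.

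Markers of photoreceptors, melanin synthesis and ciliary body and iris had a larger median change in experiment 2, whereas those of pigment epithelium and of cornea and conjunctiva had a lower one. With the experiment as a block no probe set reached an adjusted p of 0.05, so 0 of the marker calls at that level held. At 1.8-fold and an unadjusted p of 0.01, the fit called 4 of 7 pigment epithelium markers higher without the block and 4 with it, 3 and 1 of 11 photoreceptor markers, and 1 and 1 of 6 melanin synthesis markers. Of all probe sets, it called 0.111% higher without the block. All 11 measured photoreceptor markers had higher signals in UVB than in control, by more in experiment 2 than in experiment 1, with a median change of 0.67 in experiment 1 and 1.18 in experiment 2. Their summed linear signal was 8264 and 6776 in the controls and 12701 and 15534 in UVB. The fit called 6 of the 11 higher at an adjusted p of 0.05, against 6.62% of all probe sets. Gnat1, the rod transducin α subunit, had changes of 0.55 and 1.29. An excess of experiment 2 over 1.5-fold was found in 4 of the 11, against 0.435% of all probe sets.

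Of 6 melanin synthesis markers, which mark pigment cells where Gpnmb is abundant, all were higher in both experiments, with medians of 0.47 and 0.70 and summed signals of 962 and 863 in control against 1347 and 1503 in UVB. Retinal pigment epithelium markers had the opposite order in their medians, 1.57 in experiment 1 and 0.98 in experiment 2. Their summed signals were 1784 and 1921 in control against 5153 and 4794 in UVB. Called higher were 4 of the 7, namely Rpe65, Rgr, Ttr and Otx2. Of these, Ttr (1.57 and 1.66) and Otx2 (0.84 and 0.98) had the larger change in experiment 2. The study reports Otx2, by RT-qPCR and immunostaining, as induced by UVB in the lens epithelial cells themselves. Of 9 markers of Müller glia and astrocytes, in which Lcn2 and Serpina3n are known to be induced, the medians were 0.14 and 0.12 and the summed signals 17161 and 16048 in control against 18003 and 19464 in UVB. Rlbp1, a retinoid carrier of Müller glia that the pigment epithelium also makes, was the 1 gene of this list called higher (adjusted p = 0.0215). In 7 of the 9 the change was larger in experiment 2, with 0.22 and 0.72 in Apoe, the main apolipoprotein of glia, 0.22 and 0.71 in Slc1a3, a glutamate transporter, and 0.14 and 0.40 in Glul, the glutamine synthetase. Gfap, the filament protein that marks reactive glia, had changes of −0.18 and 0.12, and Kcnj10, a potassium channel, of 0.50 and −0.06.

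Of 13 leukocyte markers, the unpaired fit called 6 higher and 1 lower, against 6.62% and 11.0% of all probe sets. With the block it called 0 of them. Their medians were 0.14 and 0.10, and their summed signals 1242 and 1199 in control against 1433 and 1503 in UVB. Csf1r, the macrophage growth factor receptor, rose by 0.39 and 0.31 (adjusted p = 0.0224). Lyz2, the lysozyme of myeloid cells, had changes of 0.39 and 0.97 and was not called (adjusted p = 0.0994). Itgam was the 1 called lower (−0.21 and −0.18, adjusted p = 0.0217). Aif1 (0.16 and −0.10), S100a8 (0.14 and −0.16) and Cd3e (−0.03 and 0.02) had changes of unlike sign. Of the 8 blood vessel markers, among which Kdr, a receptor of vascular growth factor, rose by 0.38 and 0.39 (adjusted p = 0.0210) and Cdh5 and Tek fell, all lay below the array median on all 4 arrays, with summed signals of 712 and 704 in control against 697 and 706 in UVB. The 6 markers of ciliary body and iris had medians of 0.145 and 0.36 and summed signals of 2974 and 2787 in control against 2895 and 3128 in UVB. Of the 6, 4 were higher and 1 was lower in both experiments. Best2 had changes of 0.19 and 0.59, Zic1 of 0.24 and 0.60, and Zic2 of 0.23 and 0.73, none of them called. Aqp1 fell by 0.24 and 0.16 (adjusted p = 0.0375). Its signals of 10.51 to 10.75 were the highest of the list and weigh most in the sums.

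Cornea and conjunctiva markers went the other way, with 4 of 9 more than 1.5-fold below experiment 1 in experiment 2 and 1 of 9 above it at all. In experiment 1, 3 of the 9 were over 1.8-fold higher, against 0.131% of all probe sets. These were Krt5 (changes 1.10 and −0.23), Krt6a (0.93 and −0.27) and Krt12 (0.86 and 0.04), while 5 of the 9 were lower in both experiments. The summed signals of the list were 5074 and 5251 in control against 4966 and 4758 in UVB. Aldh3a1 had the highest signals of the list, 11.55 to 11.64, and so weighs most in these sums. The lens epithelium markers had medians of −0.02 and 0 and summed signals of 36927 and 36891 in control against 36766 and 36964 in UVB. Lens fiber markers, 11 measured, had medians of −0.02 and −0.08, and 7 were lower in both experiments. Their summed signals were larger, 95262 and 96150 in control against 93837 and 92805 in UVB. What part these tissues have in the signals of Lcn2, Il33 and the other genes was not tested.

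**Figure D4:**
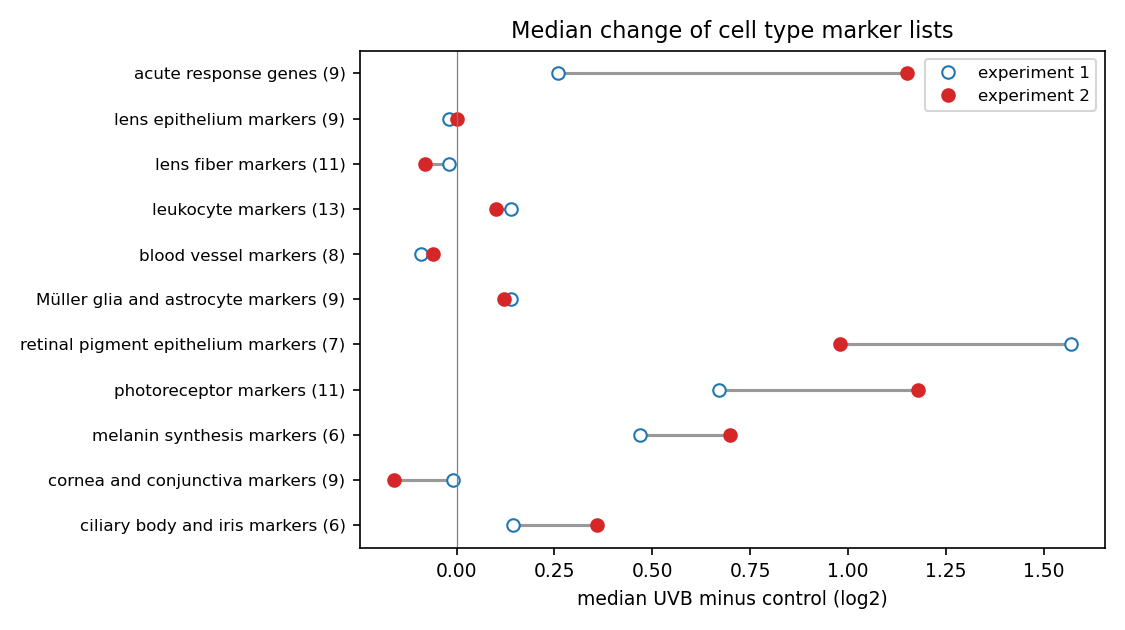
Median UVB minus control (log2, horizontal axis) in experiment 1 (open) and experiment 2 (filled) of the acute response genes and of each list of cell type markers, with the number of genes measured in brackets. Photoreceptor markers shift from 0.67 to 1.18 and pigment epithelium markers from 1.57 to 0.98, while the lens epithelium markers stay at −0.02 and 0.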

How the data were processed

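RNA of control and UVB lens epithelia was hybridised to 4 one-colour Affymetrix arrays, 1 per condition in each of 2 experiments. The deposited values are log2 signals, per the labels from Affymetrix Expression Console. They were given to 2 decimals for 28944 probe sets. The methods name a human array, but the probe sets carry mouse symbols, and of the build the sources used here say nothing. Platform annotation paired 21789 probe sets with 1 symbol, 1621 with several and 5534 with none. A gene was read from its single-symbol probe set with the highest mean. The deposited table served as is. The number of arrays limits the precision.

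UVB was compared with control in limma 3.58.1 (R 4.3.3) over all probe sets, two-sided, without pairing, since the methods name no paired test for the arrays although both eyes came from the same mice. Calls used an adjusted p of 0.05, or 1.8-fold and an unadjusted p of 0.01. Array numbers of control and UVB mark the experiment, and because of the equal experiment means the deviations of same-numbered arrays correlate at −0.998. An exact permutation test of 2 against 2 arrays cannot go below p = 0.333. The labels do not say that arrays hold separate animals, so p-values speak only of these arrays. With equal experiment means, the residual of the unpaired fit holds only how far the 2 changes of a probe set disagreed. The fit counts it with 2 residual degrees of freedom, where the block leaves 1. The fit was tested on simulated data with independent noise on every array. Those data lacked the equal experiment means, so that test cannot show whether the p-values here are too small. Alternatives were the replicate block, other scalings, an intensity trend, a filter on low signals, the methods' t-test and each array left out.

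The 9 genes and the lists were chosen with earlier results of these data known. Named were the 9 genes, per list up to 3 genes with the largest mean change of like sign, direct partners of the 9, the 3 genes nearest to Lcn2 and to Il33, and the 10 with the largest excess. Other called genes, A2m and the marker genes were named after their values were seen. Promoter sequences are from RefSeq (GRCm38.p6).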

Additional observations from a re-analysis of the deposited data

How the results depend on the processing

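At 1.8-fold and an unadjusted p of 0.01, 32 probe sets were higher after UVB, against 18 with the replicate block (0 after Benjamini-Hochberg, with 3878 higher or lower at an unadjusted p under 0.05), 14 with the methods' t-test and 13 to 15 with 1 array left out. Of the listed pathway genes, 12 were called higher and 13 lower in limma, against 6 and 8 among probe sets above the median, 4 and 5 by the methods' t-test after Benjamini-Hochberg, 0 and 0 with the replicate block (11 and 9 at an unadjusted p under 0.05), and 0 and 0 with any 1 array left out (12 to 15 and 12 to 16). A fit without 1 array takes the lone array to vary like the other group. These fits have 1 residual degree of freedom. The cause of the lost calls was not tested. With each array centred on its median, UVB minus control in experiment 1 turned to −0.01 in Serpina3n and to −0.01 in Vcam1. Over both Socs3 probe sets the changes were 0.185 and 0.15. The other changes of the 9 genes kept their direction under quantile normalization, median centring and an equal 75th percentile, moving by at most 0.035, and the median excess of experiment 2 was 0.64 to 0.68. Calls lost under the block say nothing of a weaker effect, and the signals of Vcam1 below the array median limit its change. The signals of Birc3, Saa3, Steap4, Ptx3, Orm2, Itih4, Osm, Il1b, Irak3, Itga4, Itgam, Madcam1, Cxcl10 and Chit1 also lay below the array medians. This limits their changes too.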

Other observations

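Of the 19938 genes, 80 were over 1.8-fold higher in experiment 2. Of these 80, 9 were also over 1.8-fold higher in experiment 1, and 41 were under 1.5-fold there. Lcn2, Il33, Serpina3n, Gpx3, Chil1 and Gpnmb are 6 of those 41. Such values helped to choose them, so nothing is read from this count. The following were named after their values were seen and carry no test. Efemp1, a fibulin, had changes of 0.26 and 0.99, Fbln1, another fibulin, of 0.27 and 0.85, and Prelp, a leucine-rich proteoglycan, of 0.25 and 0.87. Sod3, the extracellular superoxide dismutase, had changes of 0.29 and 0.85, beside 0.21 and 0.87 for Gpx3. Crhbp, which binds corticotropin-releasing hormone, had changes of 0.30 and 1.06, and Tnfrsf21, a death receptor, of 0.27 and 0.85.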
